A study of Homo sapiens with 23 samples.

Results

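The epithelial-mesenchymal transition genes described here are 10 named genes followed through depletion of the RNA methyltransferase THUMPD3 in A549 cells. They were taken by name, and the choice was made with earlier results of these data known. CDH1, EPCAM and GRHL2 stand for the epithelial state, CDH2, CDH6 and VIM for the mesenchymal state, and SNAI1, SNAI2, ZEB1 and ZEB2 for the transcriptional repressors of the transition. All 10 were found once among the 61806 genes of the first table, which lists genes by Ensembl identifier, and once among the 42901 genes of the deep table, which lists them by symbol. GRHL2 was too low to be tested anywhere, so 9 of the 10 carry tests.

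In an epithelial-mesenchymal transition, cells loosen their junctions and gain a motile, spindle-like form. E-cadherin, encoded by CDH1, holds neighbouring epithelial cells together through the catenins, and its replacement by N-cadherin (CDH2) is the best known molecular sign of the change. SNAI1 and SNAI2 (the zinc finger proteins Snail and Slug) and ZEB1 and ZEB2 bind E-box sequences and repress CDH1, while GRHL2 and the miR-200 family oppose the ZEB factors. Lung carcinoma lines such as A549 are known to express epithelial keratins together with vimentin.

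A549 is an established human lung carcinoma epithelial line. Total RNA without ribosomal RNA was sequenced from 23 libraries in 8 groups. THUMPD3 was depleted with an siRNA (siD3 #3, harvested on day 5) or with either of 2 shRNAs from a doxycycline-inducible lentiviral construct kept under puromycin selection (shD3 #1 and shD3 #4, harvested on day 6). The controls, labelled WT, were siControl (2 libraries), sh1Control and sh4Control, and a second set of deep libraries held sh1Control and shD3 #1 again. Every group other than siControl held 3 libraries that the labels call biological replicates. The labels do not say whether the deep libraries came from the same cultures as the first ones. The 4 comparisons of knockdown with control therefore cover 3 constructs, with shD3 #1 in both sets. The study's methods class all controls as untreated samples, and whether sh1Control and sh4Control cells carried the construct without doxycycline is not given in the sources used here. The transduced cells were selected populations, and nothing in the labels says that they were single clones.

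Promoter sequence is shown for CDH2 and VIM, which rose together in shD3 #1, and for ZEB1, which was not called in any knockdown. The sequences are the 250 bases before the transcription start in RefSeq (GRCh38.p14), for the listed start nearest to the GENCODE 44 start of the gene. Capitals mark the E-box CAGGTG (reverse complement CACCTG), to which SNAI and ZEB proteins bind, and the GC box GGGCGG (reverse complement CCGCCC). The E-box occurs in 17.5% and the GC box in 42.6% of the 35116 RefSeq windows of the same length, and the 2 motifs do not overlap in the windows shown.
CDH2, chr18:28177131-28177380, minus strand: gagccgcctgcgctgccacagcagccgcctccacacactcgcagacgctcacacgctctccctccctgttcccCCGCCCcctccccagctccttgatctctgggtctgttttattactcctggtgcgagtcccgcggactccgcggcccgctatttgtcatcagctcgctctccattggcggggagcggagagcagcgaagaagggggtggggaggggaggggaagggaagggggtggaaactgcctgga
VIM, chr10:17227991-17228240, plus strand: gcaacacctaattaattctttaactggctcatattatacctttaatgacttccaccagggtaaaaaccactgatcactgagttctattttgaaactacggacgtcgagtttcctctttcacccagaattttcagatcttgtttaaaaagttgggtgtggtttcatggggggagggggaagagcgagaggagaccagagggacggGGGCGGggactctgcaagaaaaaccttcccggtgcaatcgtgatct
ZEB1, chr10:31318167-31318416, plus strand: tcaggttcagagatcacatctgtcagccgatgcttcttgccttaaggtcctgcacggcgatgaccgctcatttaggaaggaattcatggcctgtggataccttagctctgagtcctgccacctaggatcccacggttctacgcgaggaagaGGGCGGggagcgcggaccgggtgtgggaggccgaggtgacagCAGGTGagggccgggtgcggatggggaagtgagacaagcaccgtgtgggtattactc
The ZEB1 window held the E-box once, 57 bases before the start, and the GC box once. Neither the CDH2 nor the VIM window held these E-box letters, and each held 1 GC box, at 177 and 46 bases before the start. The VIM window was 46.0% G and C, against 66.0% for CDH2 and 59.2% for ZEB1. RefSeq windows were also found for ZEB2, with neither motif, and were not in the table used here for CDH1, EPCAM, GRHL2, CDH6, SNAI1 or SNAI2.

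Depth was 9854294 to 22101059 counts per library in the first set and 27285889 to 59974740 in the deep set. THUMPD3 stood at 51.3% of its own control in shD3 #1, 31.4% in shD3 #4, 17.1% in siD3 #3 and 49.6% in deep shD3 #1, with no overlap between groups in any of these comparisons. The labelled cell type matched its markers in that KRT8, KRT18, KRT19, KRT7 and EPCAM together reached 3687 to 7902 counts per 1000000 of the library, TMM-normalised (cpm), in every library. EPCAM is also one of the genes described here. This sum was 5859 to 6185 cpm in sh1Control and 7604 to 7902 in shD3 #1, and 4559 to 5106 and 6874 to 6963 in their deep libraries. It was lower in shD3 #4, at 4693 to 5152 cpm against 6597 to 6849. In siD3 #3 it was 3687 to 6382 cpm against 5077 to 6048. The 6 fibroblast markers summed to 4.58 to 30.0 cpm, and their knockdown ranges lay above their control ranges in every comparison. LUM was called higher in all 4 and COL1A1 in shD3 #1 and its deep libraries, while THY1 was called lower in the deep libraries (-1.98 on the log2 scale, adjusted p = 8.8e-07). DCN was at 0 counts in every library of 6 of the 8 groups, and the part of fibroblasts in the results was not tested. The 4 endothelial markers summed to 0.139 to 0.327 cpm in siControl and 1.74 to 2.17 in siD3 #3, to 0.421 to 0.479 in sh4Control and 1.09 to 1.72 in shD3 #4, and to 0.363 to 1.39 elsewhere. Of these, KDR was called higher in siD3 #3 (3.22) and CDH5 in shD3 #4 (1.64) and the deep libraries (1.21), each at no more than 28 counts per library, and their part in the results was not tested either. The 4 immune markers summed to 2.24 to 4.93 cpm in the first set and to 52.2 to 102.6 cpm in the deep set. CD68 alone held 45.3 to 97.7 cpm in the deep set and was called higher there (1.02). It had 0 to 4 counts per library in the first set and 2462 to 3474 in the deep set, a difference that was not tested. CD14 was called lower in shD3 #1 (-0.79, adjusted p = 0.0023). In the deep libraries CD14 was at -0.53 (adjusted p = 0.0011), short of 1.5-fold. CD3E was at 0 counts in 22 of the 23 libraries. The library siD3 #3 replicate 3 stood apart from its group for the genes described here, with 0.473 times the CDH1 and 2.11 times the SNAI1 of the mean of the other 2, so the siD3 #3 change of each of the 9 tested genes and the siD3 #3 list counts are also given without it.

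In the control cells the 10 genes spanned a wide range of levels per length, here cpm per kb of the canonical transcript. VIM, an intermediate filament protein, was the most abundant, at 304.2 ± 10.6 (SD, n = 3) in sh1Control. CDH1 followed at 24.2 ± 1.27, then CDH2 at 18.6 ± 0.944, so mRNA of both classical cadherins was present in the same control libraries. EPCAM (6.23 ± 0.817), ZEB1 (5.10 ± 0.0614) and CDH6 (4.06 ± 0.297) formed a middle group. ZEB2 (0.473 ± 0.141), SNAI1 (0.451 ± 0.0382) and SNAI2 (0.329 ± 0.0346) were the lowest of the tested genes. The levels per length of ZEB2 and SNAI1 differed by less than their SDs. ZEB1 also had the highest mean of the 4 repressors in the other controls. The distance was smaller there, with ZEB1 at 5.21 and ZEB2 at 1.03 in siControl, and with ZEB1 at 5.77 and SNAI1 at 1.64 in the deep sh1Control libraries.

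The controls of the 3 knockdowns were not alike for every gene. On the common scale of the 17 first libraries, CDH1 was 111.5 to 123.3 cpm in sh1Control, 101.2 to 122.1 in sh4Control and 88.5 to 89.3 in siControl. EPCAM was 8.18 to 10.4 cpm in sh1Control and 10.5 to 11.7 in sh4Control, but 5.20 and 2.77 in the 2 siControl libraries. VIM ran the other way, at 642 to 682 cpm in sh1Control, 681 to 710 in sh4Control and 1006 to 1046 in siControl. ZEB2 was 2.90 to 5.35 cpm in sh1Control, 4.40 to 4.95 in sh4Control, and 7.27 and 11.9 in siControl. Within this set the transfected controls thus held less CDH1 and EPCAM and more VIM and ZEB2 than either shRNA control, with no overlap between the groups. The deep sh1Control libraries, counted and normalised apart, did not keep to that order for EPCAM and ZEB2. They held EPCAM at 2.84 to 3.38 cpm and ZEB2 at 8.07 to 9.27 cpm, inside the siControl ranges. Transfection, day of harvest and cell population cannot be told apart here.

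**Figure D1:**
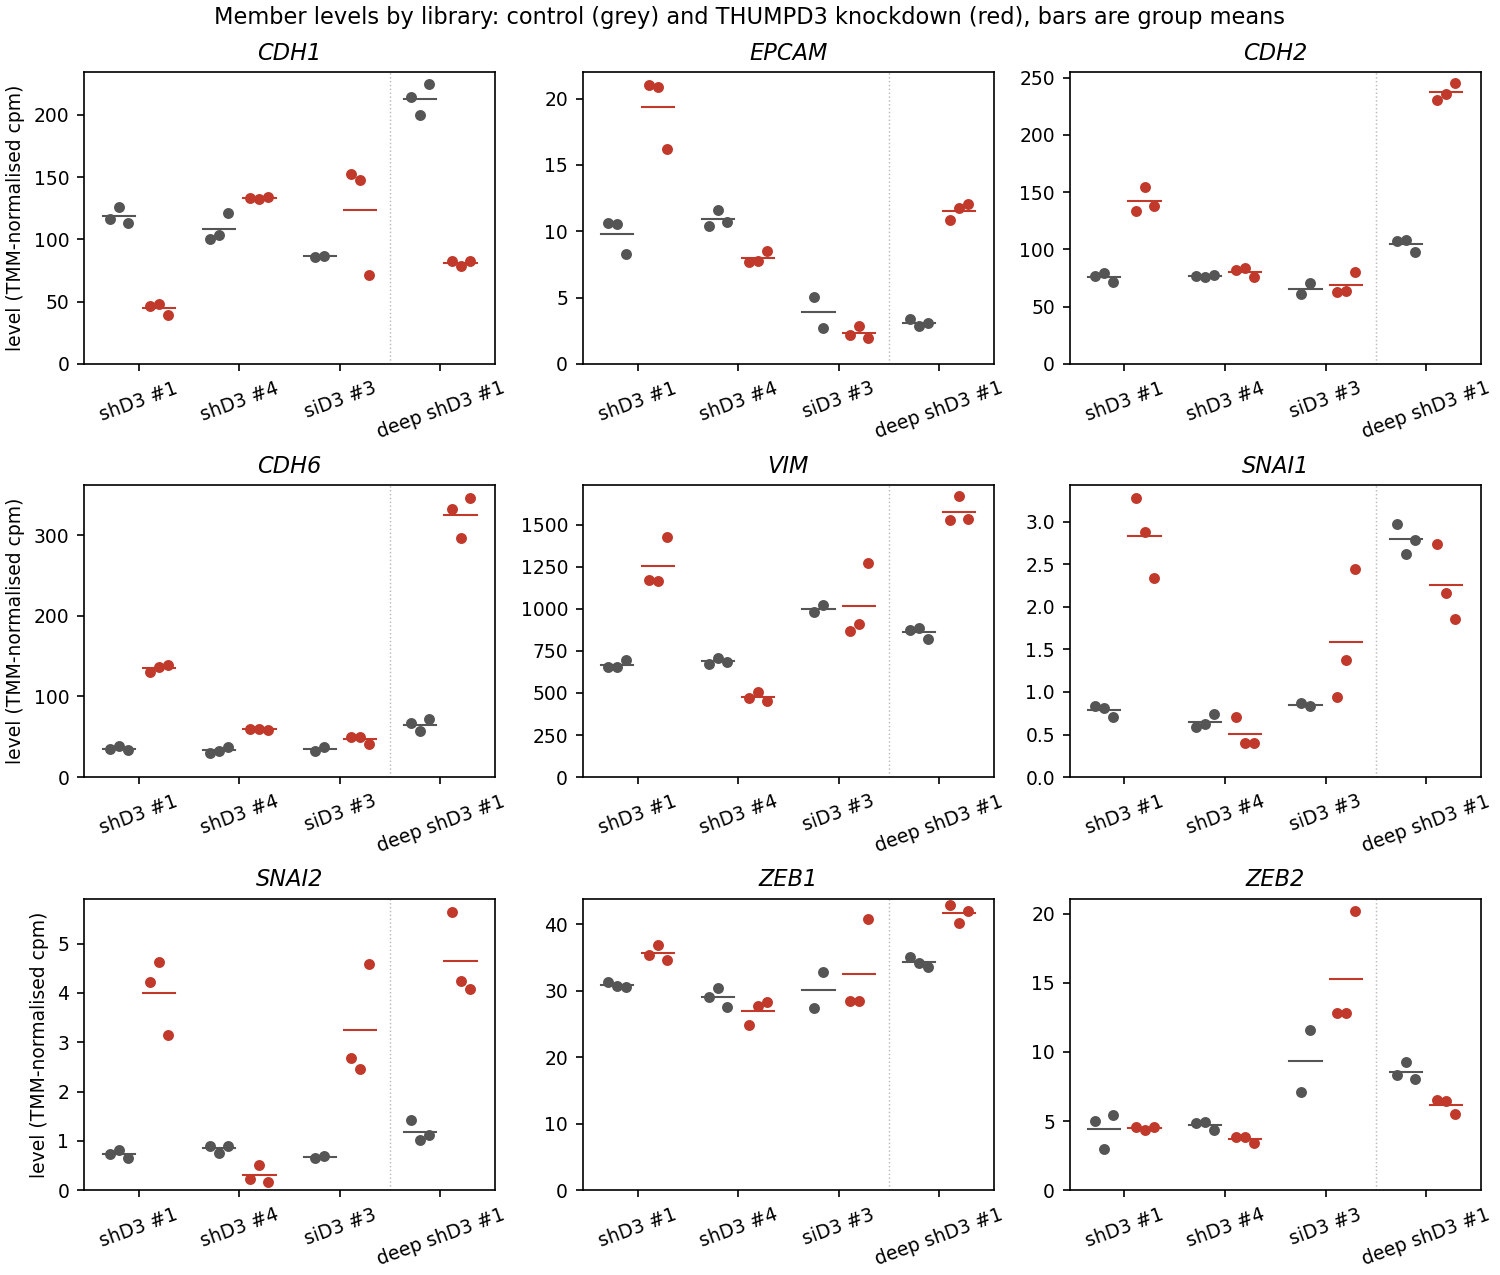
Levels of the 9 tested genes in each of the 23 libraries, as TMM-normalised cpm on a linear axis from 0, with the control (grey) and knockdown (red) libraries of each comparison side by side and a bar at each group mean. CDH1 is lower and CDH6 higher in every shD3 #1 library than in its controls, while in siD3 #3 the CDH1 value of 1 library, at 71.1 cpm, lies below both controls and the other 2 lie above them.

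A gene was called where its Benjamini-Hochberg adjusted p in edgeR's quasi-likelihood test was under 0.05 and its log2 fold change was past 0.585, which is a 1.5-fold change. Levels are TMM-normalised cpm within each comparison. Changes are log2 fold changes of knockdown over control with their standard error (SE). In shD3 #1, 6 of the 9 tested genes rose and 1 fell, in shD3 #4, 1 rose and 1 fell, and in siD3 #3, 1 rose and none fell. Over all genes tested, the shares called higher and lower were 14.5% and 14.6% in shD3 #1. They were 8.00% and 4.50% in shD3 #4. For siD3 #3 they were 12.5% and 9.42%. In deep shD3 #1, 5 of the 9 rose and 1 fell, where 15.0% of all genes were called higher and 14.1% lower. In siD3 #3, where edgeR called 0 lower and DESeq2 also called 0, 1 gene (EPCAM) had a lower level at an unadjusted p under 0.05. The median change of the 9 genes was 0.91 in shD3 #1, -0.32 in shD3 #4, 0.42 in siD3 #3 and 0.87 in deep shD3 #1, beside medians between -0.02 and 0.03 over all genes.

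CDH1, the cadherin of epithelial adherens junctions, fell in shD3 #1. Its level was 116.5, 125.9 and 113.4 cpm in sh1Control and 46.8, 48.5 and 39.7 cpm in shD3 #1. The knockdown libraries all lay below the controls, at 38.0% of the control mean (log2 fold change -1.39, SE 0.08, adjusted p = 5.8e-10). In bulk RNA, fewer cells with a transcript and less transcript per cell cannot be told apart. The deep libraries gave the same size of change, from 214.4, 199.8 and 224.9 cpm to 82.3, 79.0 and 82.5 cpm (log2 fold change -1.39, SE 0.05, adjusted p = 1.2e-11). In shD3 #4 the gene went the other way: 100.1, 103.8 and 121.1 cpm in sh4Control stood against 133.2, 132.2 and 134.0 cpm. These groups did not overlap either, but the log2 fold change of 0.30 (SE 0.07, adjusted p = 0.0011) was short of 1.5-fold and was not called. In siD3 #3 the 3 libraries were split, at 152.8, 147.7 and 71.1 cpm against 86.2 and 87.0 cpm in siControl. The change was 0.52 (SE 0.29, adjusted p = 0.21). Without replicate 3 it was 0.79 (adjusted p = 3.7e-05) and was called higher. That library was set apart partly for its low CDH1, so this call is not independent of the choice.

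EPCAM, a surface adhesion protein of epithelia and itself an epithelial marker, moved against CDH1 in shD3 #1. It stood at 10.6, 10.5 and 8.32 cpm in sh1Control and at 21.0, 20.9 and 16.2 cpm in shD3 #1, with no overlap (log2 fold change 1.00, SE 0.12, adjusted p = 2.9e-06). In the deep libraries it was 3.38, 2.84 and 3.09 cpm in sh1Control and 10.8, 11.8 and 12.0 cpm in shD3 #1 (log2 fold change 1.89, SE 0.10, adjusted p = 9.1e-10). Both data sets therefore hold a rise of this epithelial marker beside a fall of CDH1. In shD3 #4 all 3 libraries were below the controls, at 7.66, 7.74 and 8.55 against 10.4, 11.6 and 10.7 cpm, but the change of -0.46 (SE 0.10, adjusted p = 8.7e-04) did not reach 1.5-fold. In siD3 #3 the levels of 2.22, 2.86 and 1.94 cpm overlapped the 2 controls at 5.07 and 2.7 cpm. The change was -0.75 (SE 0.31, adjusted p = 0.099), or -0.66 without replicate 3 of the knockdown. It rested on which control was kept, at -1.13 (adjusted p = 0.045, called) without siControl replicate 2 and -0.22 (adjusted p = 0.69) without siControl replicate 1.

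GRHL2, the Grainyhead factor that maintains epithelial gene expression, was close to the floor throughout. It had 0 counts in 13 of the 17 first libraries and at most 2 in the others, and 0 to 8 counts in the deep libraries. A count of 0 allows a level of up to 0.136 to 0.304 cpm in the first libraries, by a limit of 3 counts that covers counting error only. MIR200CHG, the host of part of the miR-200 family, had 0 to 3 counts in all 23 libraries. RAB25 had 0 to 2 counts in the first and 1 to 5 in the deep libraries. CDH1 was thus well expressed in control cells in which GRHL2 and the miR-200 host transcript were at or near 0.

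CDH2, the N-cadherin of neural and mesenchymal cells, rose in shD3 #1. Its level went from 77.0, 79.9 and 71.9 cpm to 133.4, 154.2 and 138.2 cpm, without overlap (log2 fold change 0.90, SE 0.07, adjusted p = 2.4e-08). The deep libraries went from 107.4, 108.0 and 97.7 to 230.3, 235.5 and 245.5 cpm (log2 fold change 1.18, SE 0.05, adjusted p = 4.7e-11). The other knockdowns did not share this rise. Levels overlapped in shD3 #4, at 75.8 to 83.5 cpm against 76.0 to 77.7 (log2 fold change 0.07, adjusted p = 0.42). They overlapped too in siD3 #3, at 62.4 to 80.2 cpm against 61.4 to 70.3 (log2 fold change 0.06, adjusted p = 0.75, and -0.07 without replicate 3).

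CDH6 is a type 2 cadherin of kidney and neural crest that is found in several carcinomas. Its log2 fold change was above 0 in all 4 comparisons. It was called in 3, those of shD3 #4 and of shD3 #1 in both data sets. In shD3 #1 it went from 34.3, 38.4 and 33.4 cpm to 129.8, 136.5 and 138.4 cpm (log2 fold change 1.93, SE 0.07, adjusted p = 6.0e-12). In the deep libraries it went from 66.8, 56.9 and 72.0 to 332.8, 296.6 and 345.7 cpm (log2 fold change 2.32, SE 0.08, adjusted p = 5.9e-12). In both data sets this change was larger than that of CDH1 or CDH2. In shD3 #4 the libraries at 59.8, 59.9 and 58.2 cpm all lay above the controls at 29.4, 32.1 and 37.7 cpm (log2 fold change 0.84, SE 0.08, adjusted p = 1.9e-09). In siD3 #3 the libraries at 49.7, 50.0 and 40.8 cpm lay above the controls at 33.0 and 37.1 cpm. That change of 0.42 (SE 0.12, adjusted p = 0.032) passed the adjusted p and not the fold, also without replicate 3 (0.50, adjusted p = 0.0017).

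VIM, the vimentin of the mesenchymal cytoskeleton, rose in shD3 #1, from 653, 656 and 693 cpm to 1169.7, 1165 and 1428 cpm (log2 fold change 0.91, SE 0.07, adjusted p = 3.9e-08). The deep libraries went from 877, 887 and 823 to 1526, 1672 and 1535 cpm (log2 fold change 0.87, SE 0.05, adjusted p = 2.4e-09). In shD3 #4 every library was below the controls, at 469, 505 and 454 cpm against 674, 705 and 681. The change there of -0.53 (SE 0.07, adjusted p = 4.9e-07) was just short of 1.5-fold and was not called. In siD3 #3 the libraries at 867, 909 and 1271 cpm fell on both sides of the controls at 979 and 1019.5 cpm. The change was 0.02 (SE 0.17, adjusted p = 0.93) with replicate 3 and -0.18 (adjusted p = 0.14) without it.

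The level per kb of CDH2 relative to that of CDH1, the ratio read as a cadherin switch, is given as a description. It was 0.76 to 0.792 in sh1Control and 3.42, 3.81 and 4.17 in shD3 #1. In the deep libraries it was 0.52 to 0.648 in sh1Control and 3.35, 3.57 and 3.56 in shD3 #1. CDH2 was therefore the less abundant of the 2 cadherin mRNAs in both sets of controls and the more abundant in every shD3 #1 library. In shD3 #4 the ratio stayed under 1, at 0.678 to 0.757 against 0.769 to 0.916 in sh4Control. In siD3 #3 it was 0.489, 0.516 and 1.35 against 0.853 and 0.968 in siControl, so replicate 3 lay above and the other 2 libraries below the controls. The level of CDH6 relative to CDH1 went from 0.166 to 0.172 in sh1Control to between 1.56 and 1.96 in shD3 #1, and from 0.166 to 0.175 in sh4Control to between 0.245 and 0.255 in shD3 #4. It went from 0.16 to 0.18 up to 2.12 to 2.36 in the deep libraries. In siD3 #3 it was 0.183, 0.191 and 0.323 against 0.216 and 0.24 in siControl, so again replicate 3 lay above and the other 2 libraries below the controls.

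**Figure D2:**
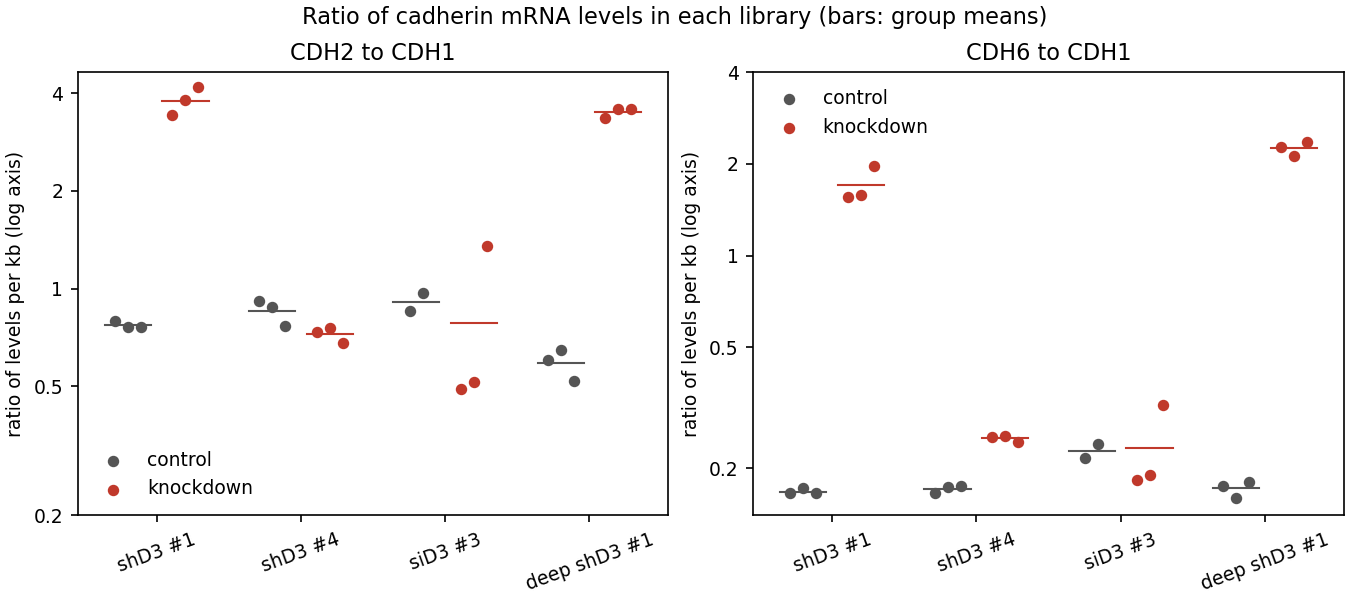
Ratio of the level per kb of CDH2 (left) and CDH6 (right) to that of CDH1 in each library, on a log axis, with controls in grey, knockdowns in red and a bar at each group mean. The 6 shD3 #1 libraries lie between 3.35 and 4.17 for CDH2 and all other libraries but siD3 #3 replicate 3 lie below 1.

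SNAI1, the Snail repressor, differed between the 2 data sets of one shRNA. In the first shD3 #1 libraries it went from 0.830, 0.812 and 0.706 cpm (14 to 16 counts) to 3.28, 2.87 and 2.34 cpm (23 to 54 counts), without overlap (log2 fold change 1.87, SE 0.24, adjusted p = 6.3e-06). In the deep libraries the controls were already at 2.97, 2.62 and 2.78 cpm and shD3 #1 was at 2.74, 2.16 and 1.86 cpm. The deep groups overlapped, and the change of -0.32 (SE 0.16, adjusted p = 0.11) was not called. The 2 sets were counted in separate tables and normalised apart, so the difference between them was not tested. In shD3 #4 SNAI1 had 7 to 15 counts per library (log2 fold change -0.32, SE 0.36, adjusted p = 0.51). In siD3 #3 it was 0.944, 1.37 and 2.44 cpm against 0.872 and 0.831, a change of 0.89 (SE 0.46, adjusted p = 0.18), or 0.41 without replicate 3.

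SNAI2, the Slug repressor, had the largest change of the 9 tested genes in shD3 #1, shD3 #4 and siD3 #3, and its direction depended on the knockdown. In shD3 #1 it rose from 0.727, 0.812 and 0.655 cpm to 4.22, 4.63 and 3.16 cpm (log2 fold change 2.48, SE 0.23, adjusted p = 2.1e-07). In the deep libraries it rose from 1.43, 1.01 and 1.12 to 5.64, 4.25 and 4.07 cpm (log2 fold change 1.96, SE 0.18, adjusted p = 2.7e-07). It rose in siD3 #3 too, from 0.654 and 0.693 cpm to 2.69, 2.46 and 4.58 cpm (log2 fold change 2.26, SE 0.39, adjusted p = 0.0040, and 1.92 without replicate 3). In shD3 #4 it fell, from 0.905, 0.763 and 0.894 cpm to 0.236, 0.516 and 0.172 cpm (log2 fold change -1.47, SE 0.40, adjusted p = 0.0041). None of these groups overlapped, but the fall rests on 3 to 17 counts per library, and tested against the 1.5-fold threshold itself (glmTreat) it was not called (adjusted p = 0.10). SNAI2 was the only one of the 10 genes called in shD3 #1 and in siD3 #3 alike.

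ZEB1, the zinc finger repressor most abundant in these cells, was not called in any comparison. Its level was 30.6 to 31.2 cpm in sh1Control and 34.6 to 36.9 in shD3 #1 (log2 fold change 0.21, SE 0.07, adjusted p = 0.013), and 33.5 to 35.0 in the deep controls and 40.2 to 42.9 in deep shD3 #1 (0.29, SE 0.05, adjusted p = 2.1e-04). Those differences passed the adjusted p and fell short of 1.5-fold. The change was -0.11 (SE 0.07, adjusted p = 0.25) in shD3 #4 and 0.11 (SE 0.18, adjusted p = 0.67) in siD3 #3, where it was -0.09 (adjusted p = 0.53) without replicate 3. In siD3 #3 replicate 3 stood at 40.8 cpm beside 28.4 cpm in both other libraries.

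ZEB2, its paralogue, was not called in any knockdown either. In shD3 #1 the levels of 4.55, 4.36 and 4.58 cpm lay within those of sh1Control, at 4.98, 2.96 and 5.44 cpm (log2 fold change -0.01, SE 0.19, adjusted p = 0.98). In the deep libraries all 3 knockdown values, at 6.55, 6.48 and 5.48 cpm, lay below the controls at 8.33, 9.27 and 8.07 cpm (log2 fold change -0.48, SE 0.10, adjusted p = 9.5e-04, short of 1.5-fold). In shD3 #4 the change was -0.35 (SE 0.14, adjusted p = 0.053). The siRNA gave the opposite sign, with 12.8, 12.8 and 20.2 cpm against 7.08 and 11.6 cpm. That change of 0.72 (SE 0.28, adjusted p = 0.080) was not called, nor was the 0.47 without replicate 3. It was 0.40 without siControl replicate 1 and 1.10 without siControl replicate 2, neither of them called.

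**Figure D3:**
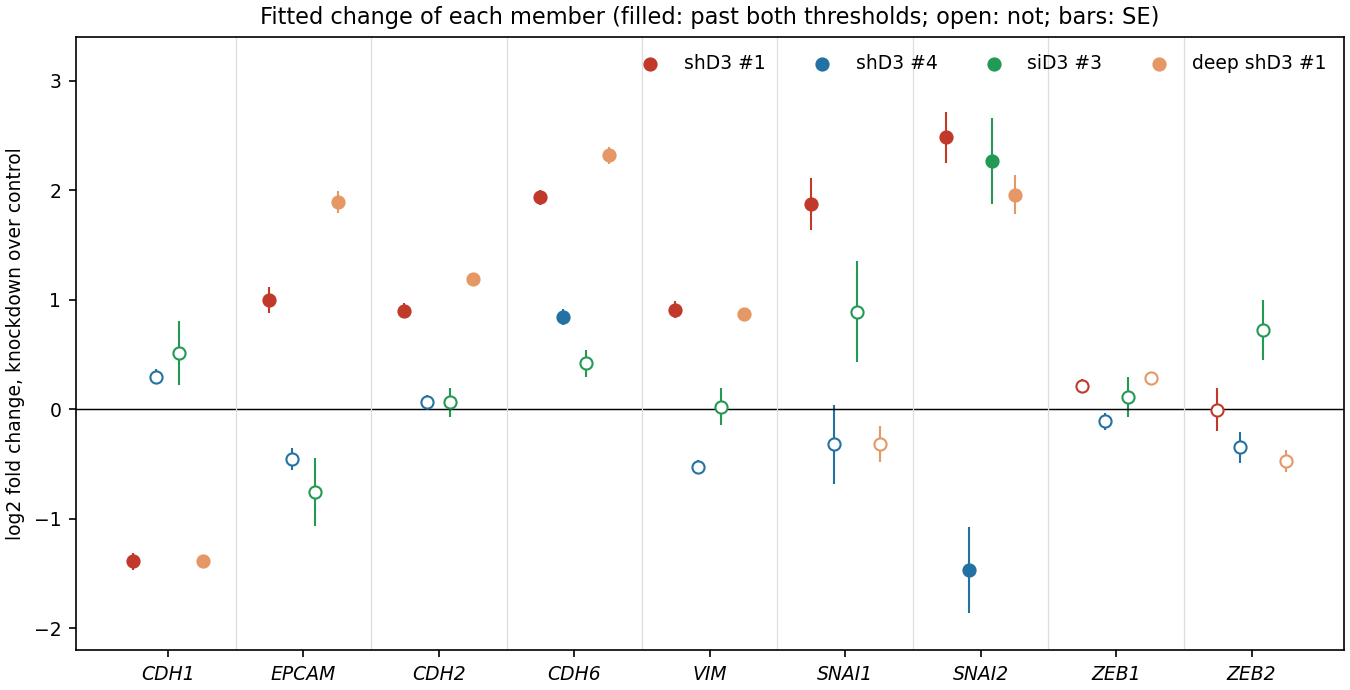
Log2 fold change of knockdown over control for each tested gene in the 4 comparisons, with SE bars, filled where the gene was called and open where it was not. SNAI2 reaches 2.48 in shD3 #1 and 2.26 in siD3 #3 but -1.47 in shD3 #4, while ZEB1 stays between -0.11 and 0.29.

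The differences between knockdowns were tested in 1 model of all 17 first libraries. The effect of shD3 #1 differed from that of shD3 #4 for 7 of the 9 genes, with 6 called higher in shD3 #1 and 1 lower, where 12.1% and 13.8% of all genes were called. The difference was 3.94 (SE 0.50, adjusted p = 3.0e-06) for SNAI2, 2.19 (SE 0.50, adjusted p = 0.0015) for SNAI1 and 1.44 for both EPCAM (SE 0.22) and VIM (SE 0.15). It was -1.69 (SE 0.25, adjusted p = 1.6e-05) for CDH1. CDH6, called higher in both shRNAs, also differed between them, by 1.09 (SE 0.13, adjusted p = 1.1e-06), and CDH2 by 0.83 (SE 0.12, adjusted p = 2.0e-05). The difference was 0.32 (adjusted p = 0.11) for ZEB1 and 0.34 (adjusted p = 0.45) for ZEB2, and neither was called. THUMPD3 itself fell further in shD3 #4 than in shD3 #1, by 0.70 on the log2 scale (SE 0.10, adjusted p = 1.2e-05). Over all genes too, more were called in shD3 #1 (14.5% higher and 14.6% lower) than in shD3 #4 (8.00% and 4.50%). How the changes relate to the THUMPD3 mRNA left was not tested, and each shRNA had its own controls.

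The siRNA effect was set against the mean of both shRNA effects in the same model. There, 3 of the 9 genes were called higher and 2 lower, where 9.43% and 7.12% of all genes were called. SNAI2 was higher by 1.77 (SE 0.44, adjusted p = 0.0044), CDH1 by 1.08 (SE 0.23, adjusted p = 0.0014) and ZEB2 by 0.92 (SE 0.27, adjusted p = 0.014). EPCAM was lower by -1.03 on the log2 scale (SE 0.26, adjusted p = 0.0047) and CDH6 by -0.95 (SE 0.12, adjusted p = 3.7e-06). These 5 were called without siD3 #3 replicate 3 as well, and 2 of them, EPCAM (-0.50, adjusted p = 0.27) and ZEB2 (0.57, adjusted p = 0.18), were not called without siControl replicate 1. The mean of the 2 shRNAs covers opposite signs for CDH1, EPCAM, VIM, SNAI1, SNAI2 and ZEB1, so it describes neither of them for those genes.

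Other genes of junctions, epithelial identity and the mesenchymal state were followed in 8 lists of 153 genes. The list counts stand beside the shares of all genes called higher and lower. Those were 14.5% and 14.6% in shD3 #1, and 8.00% and 4.50% in shD3 #4. They were 12.5% and 9.42% in siD3 #3, and 15.0% and 14.1% in the deep libraries. Epithelial junction and polarity genes were called in both directions. Of 26 tested in shD3 #1, 8 rose and 5 fell, with a median change of 0.23, and in the deep libraries 11 of 27 rose and 3 fell (median 0.38). In shD3 #4, 4 of 26 rose and 2 fell, and in siD3 #3, 5 of 25 rose and 2 fell. CLDN4, a tight junction claudin, rose in all 4 comparisons, from 0.986 to 1.33 cpm up to 6.62 to 8.30 cpm in shD3 #1 (log2 fold change 2.79, SE 0.18) and by 0.75, 2.84 and 2.69 in shD3 #4, siD3 #3 and deep shD3 #1. PPL, the periplakin of desmosomal plaques, also rose in all 4, by 0.74, 0.65, 0.91 and 1.12. MAL2, a protein of apical transport, fell in both shRNAs (-0.79 and -0.62) but was at 0.38 in the deep libraries and 1.20 in siD3 #3, uncalled in both, and its highest count was 61. Of the keratins and epithelial proteases 5 of 9 rose in shD3 #1 and 7 of 9 in its deep libraries, while 2 of 8 fell in shD3 #4, and in siD3 #3 1 of 8 rose and 1 fell. KRT19, a simple epithelial keratin, rose from 23.3 to 25.9 cpm up to 94.7 to 96.0 cpm in shD3 #1 (1.95, SE 0.07), and by 1.41 in siD3 #3 and 1.71 in the deep libraries, beside 0.27 in shD3 #4.

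Among epithelial gene regulators, 3 of 9 rose and 2 fell in shD3 #1, 3 of 9 rose and 1 fell in shD3 #4, 1 of 8 rose in siD3 #3 and 5 of 11 rose in the deep libraries. KLF4, a factor of differentiating epithelia, rose in all 4 comparisons, by 1.16, 0.63, 0.82 and 1.70. TP63, a factor of basal epithelia, rose by 1.16 in shD3 #1, 1.33 in shD3 #4 and 3.01 in the deep libraries, and was at -0.63 (adjusted p = 0.18) in siD3 #3. ESRP1, an epithelial splicing factor, fell in shD3 #1 (-1.23) and shD3 #4 (-0.86) at 3 to 25 counts per library. At 7 to 44 counts in the deep libraries it was at -0.29 (adjusted p = 0.54) and was not called. Other mesenchymal regulators were split, with 4 of 12 higher and 2 lower in shD3 #1, 1 of 14 higher and 2 lower in shD3 #4, 3 of 13 higher and 2 lower in siD3 #3, and 5 of 15 higher and 3 lower in the deep libraries. SOX4, a factor of progenitor cells, rose by 1.43 in shD3 #1, 1.05 in siD3 #3 and 1.44 in the deep libraries, beside 0.26 in shD3 #4. SOX9, a factor of lung and cartilage development, rose by 0.97 in shD3 #1, 0.76 in shD3 #4 and 1.51 in the deep libraries, beside 0.12 in siD3 #3.

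Mesenchymal markers other than the genes above split by knockdown. In shD3 #1, 9 of 21 rose and 5 fell, in siD3 #3, 7 of 22 rose and 1 fell, and in the deep libraries 6 of 22 rose and 2 fell, while in shD3 #4, 2 of 21 rose and 6 fell. ACTA2, smooth muscle actin, rose by 1.74 in shD3 #1, from 3.13 to 3.68 cpm up to 10.2 to 12.7 cpm, by 2.48 in siD3 #3 and by 0.82 in the deep libraries, beside 0.23 (adjusted p = 0.40) in shD3 #4. SERPINE2, a secreted protease inhibitor, rose by 2.02 in shD3 #1, by 1.42 with the siRNA and by 1.58 in the deep libraries, beside -0.40 in shD3 #4. SPARC, a matrix protein, rose in all 4 comparisons, by 1.42, 0.71, 1.31 and 1.63. The 2 shRNA effects differed for ACTA2 (by 1.51) and SERPINE2 (by 2.41), both called, and by 0.71 for SPARC, not called.

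Of the other cadherins, 1 of 7 tested rose in shD3 #1, 4 of 8 rose and 1 fell in shD3 #4, 3 of 10 rose in siD3 #3 and 6 of 11 rose in the deep libraries. CDH16, a kidney cadherin, rose by 2.32 in shD3 #4 and 2.87 in siD3 #3. It was too low to test in shD3 #1, at 1 to 13 counts, and in the deep libraries it was at -0.25 (adjusted p = 0.45). CDH10 rose in the same pair, by 0.93 and 1.38, from levels near 1 cpm, and was at -0.10 in shD3 #1 and 0.09 in the deep libraries. Catenins and other partners of cadherins were mostly not called, with 3 of 14 higher and 1 lower in shD3 #1, 1 of 13 lower in shD3 #4, and 3 of 15 higher and 1 lower in both siD3 #3 and the deep libraries. NECTIN4, a junctional immunoglobulin protein, rose by 2.60 in shD3 #1 and 4.48 in siD3 #3, from 0.104 to 0.693 cpm up to 1.61 to 9.14 cpm over both, and by 1.90 in the deep libraries. ARVCF, a catenin of the p120 family, rose by 1.03 and 1.54 in the same comparisons and by 1.04 in the deep libraries, and was at -0.26 in shD3 #4. CTNNAL1, a relative of alpha-catenin, fell in shD3 #4 (-1.05) and siD3 #3 (-0.96) and was at 0.17 in shD3 #1 and 0.54 in the deep libraries, uncalled in both.

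A further list holds partners that work with the SNAI and ZEB repressors or act on cadherin protein. Of 17 genes tested in each comparison, 2 rose and 4 fell in shD3 #1, 1 rose in shD3 #4, 2 rose and 2 fell in siD3 #3, and 1 rose and 1 fell in the deep libraries. EZH2, the histone methyltransferase of Polycomb, fell by 0.95 in shD3 #1 and by 1.84 in siD3 #3, beside -0.35 in shD3 #4 and -0.29 in the deep libraries. FBXW7, a ubiquitin ligase subunit, rose by 0.90 and 1.26 in shD3 #1 and siD3 #3, beside -0.01 (adjusted p = 0.93) in shD3 #4 and an uncalled 0.45 in the deep libraries. LUM, a fibroblast proteoglycan among the markers of other cell types, rose in all 4 comparisons, by 0.69, 1.73, 2.46 and 3.67, from at most 1.97 cpm in any control to at most 5.48 cpm.

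Without siD3 #3 replicate 3, the siRNA counts were 4 higher and 2 lower of 25 junction and polarity genes, 2 and 1 of 8 keratins and proteases, and 2 and 0 of 8 epithelial regulators. They were 3 and 3 of 13 mesenchymal regulators, 6 and 1 of 22 mesenchymal markers and 5 and 0 of 10 other cadherins. The catenins and partners stayed at 3 and 1 of 15, and the partners of SNAI and ZEB were at 1 and 3 of 17. Each list gene named above as higher or lower in siD3 #3 was called the same way without that library, apart from KDR, which was then too low to test. The log2 fold change was then 2.77 for CLDN4, 1.28 for SERPINE2, 4.55 for NECTIN4, 3.30 for CDH16 and -2.07 for EZH2. CDH5, not called with all 3 libraries (1.72, adjusted p = 0.20), was called higher without replicate 3 (2.19, adjusted p = 0.013).

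**Figure D4:**
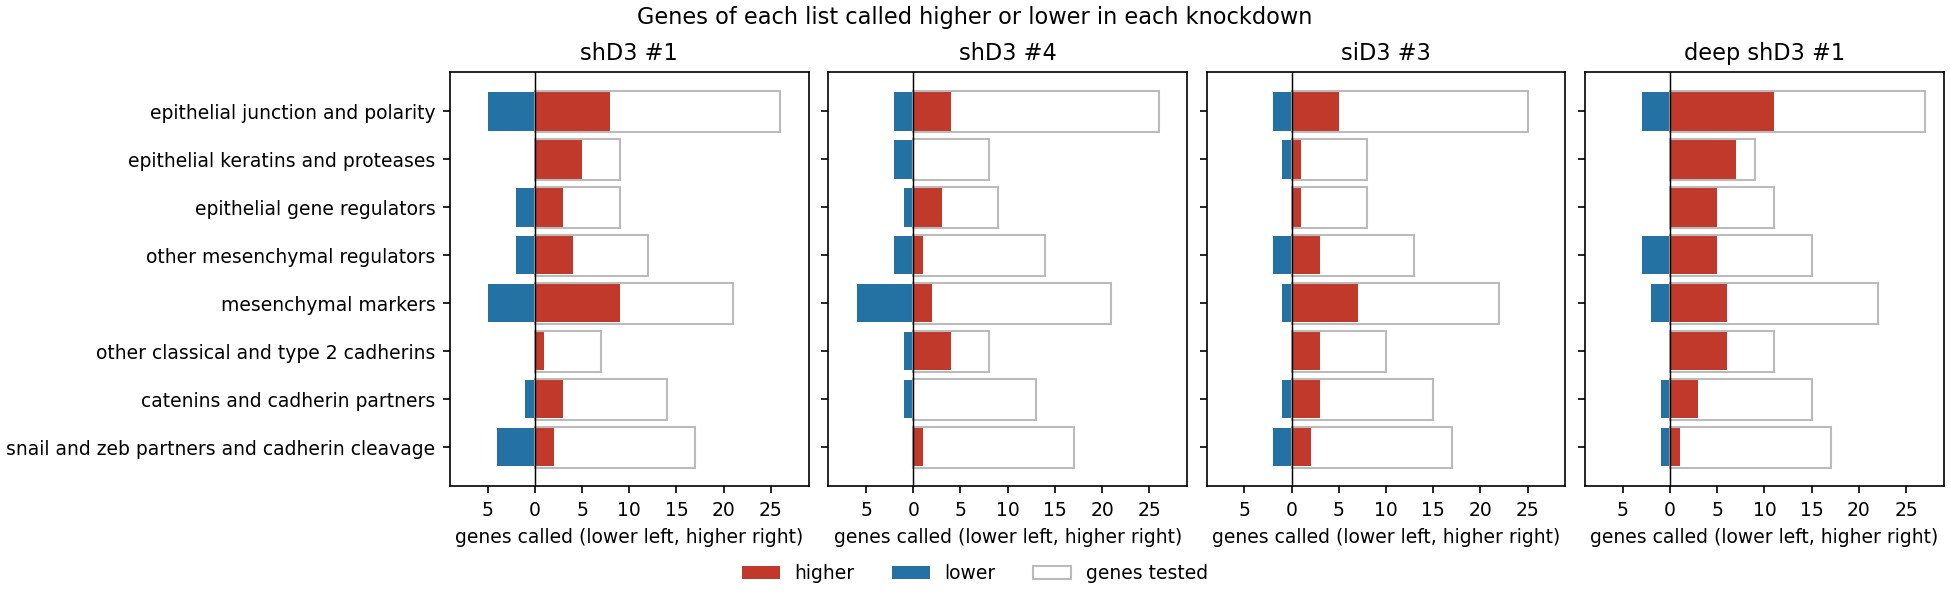
Number of genes called higher (red, to the right) and lower (blue, to the left) in each of the 8 lists and 4 comparisons, inside an outline of the number tested. Among the mesenchymal markers 9 are higher and 5 lower in shD3 #1, but 2 higher and 6 lower in shD3 #4.

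The genes whose levels ran most like each gene over the 17 first libraries are given as a description, by Pearson's r of log2 cpm among 18663 genes. The 17 points share controls and fall into 6 groups, so an r reflects group differences first. ELF3, an epithelial ETS factor, ran closest to CDH1 (r = 0.985), then VPS39 and EPB41L1. LY6E (0.957), NR2F1 and RSBN1 ran closest to EPCAM. DMBT1 (0.970), KSR2 and PDGFC ran closest to CDH2. For CDH6 these were the gene ENSG00000229425 (0.980), INPP4B and KCNE4. VIM was nearest to the cytoskeletal genes CNN2 (0.975) and FBLIM1 and to TNFRSF12A. SNAI1 was nearest to TSPAN5 (0.967), DLL4 and CAPRIN2. The genes nearest to SNAI2 were OXTR (0.969), CCN2 (0.969) and ENSG00000269729. ZEB1 had the weakest best match, ZNF267 (0.916), followed by KIAA1549L and ITGAV, and ZEB2 ran with APTX (0.959), RGS20 and C15orf48.

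For 8 of the 10 genes, all but EPCAM and SNAI1, an annotated transcript on the opposite strand overlaps an exon, and whether counting used strand is not given in the sources used here. VIM-AS1 had 27 to 124 counts per library beside 7917 or more for VIM, and ZEB1-AS1 had 40 to 291 beside 340 or more for ZEB1.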

How the data were processed

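Ribosomal-RNA-depleted RNA of A549 cells was sequenced in 23 libraries with a directional kit. The submitters' processing notes name Trimmomatic 0.40 and STAR 2.7.10a, and the paper's methods give GRCh38.p14. The deposited values are whole-number read counts per gene, made by the authors without normalisation, in 2 tables of 17 and 6 libraries. Gene names and positions came from GENCODE 44, which named 61757 of 61806 identifiers of the first table.

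The quasi-likelihood test of edgeR 4.0.16 (R 4.3.3, filterByExpr, TMM) compared each knockdown with the controls named for it, with Benjamini-Hochberg adjustment over all genes tested and thresholds of 0.05 and a log2 fold change of 0.585. Differences between knockdowns came from 1 fit of 17 libraries. A standard error is the change divided by the square root of F. The scripts were tested on simulated data. The genes and lists were chosen with earlier results of these data known. List genes named were up to 3 per list with the largest mean change, called the same way in at least 2 of the 3 first knockdowns and not the opposite way in the other. Similar genes were the 3 of highest Pearson's r (log2 cpm, prior count 2). Alternatives were DESeq2 1.42.0, its size factors in edgeR, other count filters, the replicate number as a block, glmTreat, 1 fit of 17 libraries and each replicate left out. Where the labels give biological replicates, p-values measure the spread between those libraries.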

Additional observations from a re-analysis of the deposited data

Results flagged for a closer look

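For 7 genes the effect of shD3 #1 differed from that of shD3 #4 by the test of the difference in 1 model of 17 libraries. As log2 fold change of shD3 #1 minus that of shD3 #4, the difference was 3.94 for SNAI2, 2.19 for SNAI1, 1.44 for EPCAM, 1.44 for VIM, 1.09 for CDH6, 0.83 for CDH2 and -1.69 for CDH1. For 5 genes the siD3 #3 effect differed in the same way from the mean of both shRNA effects, by 1.77 for SNAI2, 1.08 for CDH1, 0.92 for ZEB2, -0.95 for CDH6 and -1.03 for EPCAM. SNAI2, CDH1, CDH6 and EPCAM stand in both sets, which share the shRNA effects. For SNAI2 the siRNA effect of 2.26 was set against a mean of 2.48 in shD3 #1 and -1.47 in shD3 #4. Without siControl replicate 1 the siRNA difference was -0.50 for EPCAM and 0.57 for ZEB2.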

How the results depend on the processing

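No call of the 9 tested genes changed direction under any alternative. In shD3 #4 the number of genes called lower was 0 instead of 1 with at least 10 counts in every library, which leaves SNAI2 untested, and with glmTreat (SNAI2 adjusted p = 0.10). In siD3 #3, 2 genes instead of 1 were called higher with no filter beyond 1 count, with the replicate block and in 1 fit of all 17 libraries, and 1 instead of 0 was called lower without that filter and in the 1 fit. The added calls were EPCAM (-0.79 and -0.78) and ZEB2 (0.70 and 0.73) without the filter and in the 1 fit, and CDH1 (0.79, adjusted p = 2.1e-06) with the replicate block, in which siD3 #3 replicate 3 has no partner. The causes were not tested. Same-numbered libraries were not paired, since the paper's methods fit each knockdown by condition alone. The deviations of the 11 such pairs correlated between -0.108 and 0.142. Deviations from a group mean sum to 0, which limits what these values can show. With 2 siControl libraries they are mirror images, so they cannot show whether the siD3 #3 set was paired. The replicate block changed no other call. With 1 replicate left out in turn, the number called higher was 6 and lower 1 in shD3 #1, 1 and 1 in shD3 #4, 5 and 1 in deep shD3 #1, and 6 and 1 for shD3 #1 against shD3 #4. It ranged from 1 to 2 higher and 0 to 1 lower in siD3 #3 (CDH1 called without siD3 #3 replicate 3, EPCAM without siControl replicate 2), and from 2 to 3 higher and 1 to 2 lower for siD3 #3 against the shRNAs. A replicate left out of siControl leaves 1 library, assumed to vary like the others. In 20 alternative fits the sign of an uncalled value changed. These were fits of ZEB2 in shD3 #1, of CDH2, VIM and ZEB1 in siD3 #3, and of SNAI1 and ZEB1 for siD3 #3 against the shRNAs. The furthest from 0 was SNAI1 for siD3 #3 against the shRNAs, at -0.36 without siD3 #3 replicate 3. SNAI1 and SNAI2, at 3 to 17 counts per library in shD3 #4 and its controls, are limited by depth.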
